A study of Mus musculus with 13 samples.

Results

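The genes described here are 9 markers of the mural cells of blood vessels, 6 used to mark pericytes (Pdgfrb, Rgs5, Cspg4, Notch3, Kcnj8 and Abcc9) and 3 used to mark vascular smooth muscle cells (Acta2, Myh11 and Tagln). They were taken by name from the 42416 Ensembl gene identifiers of the deposited count tables, 1 identifier per gene. All 9 were among the 13360 genes that passed the filter on low counts, with at least 340 reads for each gene in each library. Bulk RNA sequencing had been performed on interscapular brown adipose tissue (iBAT), the main brown fat depot of the mouse, to ask what deletion of the receptor tyrosine kinase Axl in adipocytes changes under a high-fat diet. Both groups carried Axl flanked by loxP sites (loxP-Axl-loxP), were fed a high-fat diet (HFD) ad libitum at room temperature and were given tamoxifen at intervals of 3 weeks. The 8 iFAXLKO mice were Cre+ and the 5 WT mice were Cre-, so the controls had the floxed allele and the drug but no recombinase. Per the methods of the study, the Cre was a tamoxifen-inducible CreERT2 driven by Adipoq sequences carried on a bacterial artificial chromosome. Adipoq is an adipocyte gene, so mural cells are not the cells that the transgene was built to target. The methods give mice of 6 to 8 weeks at the first tamoxifen dose, with Cre-negative littermates as controls, and the age at dissection of the single libraries is not given in the sources used here.

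Mural cells wrap the endothelial tube. Pericytes lie on capillaries within the basement membrane that they share with the endothelium, are recruited by endothelial PDGF-B through the receptor PDGFRβ and are kept by Notch signalling from the vessel wall. Smooth muscle cells surround arterioles and larger vessels, and their contractile proteins set vessel diameter and thereby blood flow, on which heat export and fuel supply of brown fat depend.

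Total counts lay between 22.44 and 32.6 M per library, and a count of 0 would allow up to 0.134 CPM (counts per M counts of the library) in the shallowest library, far below the level of each of the 9 genes. Axl itself showed no lower level under the iFAXLKO label. It was measured at 33.1 ± 6.16 CPM (SD, n = 8) in those libraries against 27.8 ± 3.82 (n = 5) in WT, a log2 fold change of 0.25 ± 0.13 (SE, edgeR adjusted p = 0.699), so whole-tissue Axl does not check the genotype labels, and the groups below are those the labels give. Over all genes, 17 of 13360 (0.127%) passed an adjusted p under 0.05 in edgeR's quasi-likelihood test. One library, WT replicate 2, stood apart for several of the 9 markers. Relative to the WT mean, which includes it, its log2 CPM fell by 0.17 with each doubling of a gene's exon length. Taken against each library's own group mean, this slope lay between -0.03 and 0.07 in the other 12. The slopes of the WT libraries share 1 mean and so are not independent. The markers are therefore given with and without WT replicate 2. The labels also number the libraries, in an unbroken lower range of 6 (4 iFAXLKO and 2 WT, WT replicate 2 among them) and an upper range of 7 (4 iFAXLKO and 3 WT). What a library number stands for is not given in the sources used here.

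Every one of the 9 markers was readily measured in iBAT, at unequal levels. Per kilobase of exon, which is the scale on which levels are compared between genes, Rgs5 led with 101 ± 18.5 CPM per kb (SD, n = 5) in WT. Rgs5 encodes a regulator of G-protein signalling that shortens signals from Gq and Gi coupled receptors and is a widely used pericyte marker. It ranked first of the 9 in 13 of 13 libraries. Acta2 came next at 14.2 ± 2.59 CPM per kb in WT, and Rgs5 was above it in 13 of 13 libraries. Behind these lay Kcnj8 (11.6 ± 1.52), Tagln (10.5 ± 2.42), Pdgfrb (9.06 ± 0.713), Abcc9 (7.88 ± 2.04), Notch3 (7.5 ± 1.84), Cspg4 (6.22 ± 0.597) and Myh11 (3.84 ± 1.15), all in CPM per kb over the 5 WT libraries.

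Several neighbours in this order did not separate beyond their spread. Kcnj8 exceeded Tagln in only 7 of 13 libraries, and Abcc9 exceeded Notch3 in 9 of 13. Acta2 was above Kcnj8 in 11 of 13, Tagln above Pdgfrb in 10, Notch3 above Cspg4 in 10, and both Pdgfrb above Abcc9 and Cspg4 above Myh11 in 12. The 2 ends of the order were thus steadier than its middle. Rgs5 lay at the top and Myh11, the myosin heavy chain of smooth muscle, at the bottom. The place of Tagln carries a further limit. The antisense gene Gm48529 covers 62.42% of its exons, and the strand setting of the counting is not stated.

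**Figure D1:**
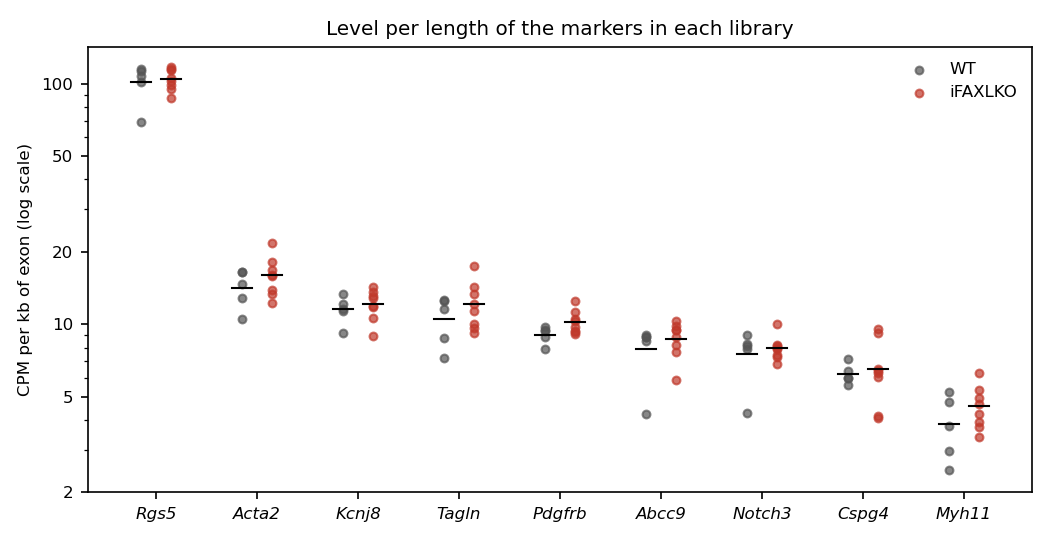
Level of the 9 markers in CPM per kb of exon, on a log axis, with 1 point per library (grey, WT, n = 5; red, iFAXLKO, n = 8) and a short black line at each group mean. Rgs5 lies between 69.3 and 117 CPM per kb, above the other 8 genes, which span 2.49 to 21.7.

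Between the groups, 0 of the 9 markers passed the adjusted threshold (background 0.127%), and 0 of 9 had an unadjusted p under 0.05, against 7.38% of all genes tested. DESeq2 also called 0 of 9 (67 genes, 0.502% of those it tested), with 1 marker, Pdgfrb, at an unadjusted p under 0.05. The share of all genes under that unadjusted limit was not counted for DESeq2. The CPM ranges of both groups overlapped for each of the 9 (0.434% of all genes tested did not, 0.24% with iFAXLKO higher). The fitted log2 fold changes lay between 0.05 and 0.25, above 0 for 9 of 9 genes, where 46.4% of all genes tested lay above 0. Within the ranges of library numbers this direction was not shared. Among the lower-numbered libraries the difference in mean log2 CPM was 0.17 to 0.67 for 8 of the 9 and -0.08 for Cspg4, with a median of 0.39. Among the upper-numbered ones it lay between -0.13 (Rgs5) and 0.12 (Cspg4), with a median of 0.01 and 6 of the 9 within 0.05 of 0. The median of the 9 fitted values was 0.14, with 0.08 for the 6 pericyte markers and 0.21 for the 3 smooth muscle markers, beside -0.01 over all genes tested. The smooth muscle median was 0.10 without WT replicate 5 and 0.11 without iFAXLKO replicate 3, where the pericyte median was 0.11 and 0.10, and the pericyte median was 0.01 without WT replicate 2. The genes of such a set vary together between mice, as described below, so 9 positive values are not 9 separate observations. Without WT replicate 2 the median fell to 0.07 and 3 of the 9, Rgs5, Notch3 and Abcc9, turned negative. In bulk tissue, fewer mural cells and less RNA per mural cell cannot be told apart, and the same holds for more.

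**Figure D2:**
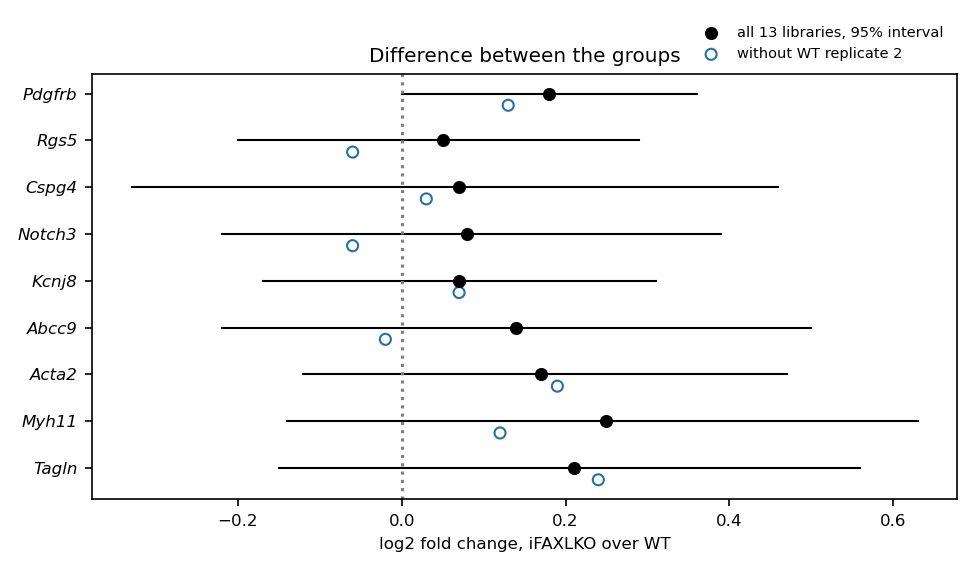
Log2 fold change of each marker, iFAXLKO over WT, from edgeR's quasi-likelihood fit over all 13 libraries (filled points) with its 95% interval (lines), and the value without WT replicate 2 (open circles). Each interval includes or touches 0, and the open circles of Rgs5, Notch3 and Abcc9 lie left of 0.

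Pdgfrb (ENSMUSG00000024620, GRCm38 chromosome 18, 61045150 to 61085061, plus strand) encodes PDGFRβ, the receptor by which pericytes are recruited and held. In WT replicates 1 to 5 it was measured at 48.4, 43.4, 51.7, 53.3 and 51.3 CPM. In the libraries labelled iFAXLKO the lowest value was 49.9 (replicate 5), the median 54.9 and the highest 68.5 (replicate 4). Thus 8 of 8 libraries lay above the WT mean and 5 above the highest WT library, while the ranges still overlapped. The means were 56.1 ± 6.3 (SD, n = 8) and 49.6 ± 3.91 CPM (n = 5), and the log2 fold change was 0.18 ± 0.09 (SE, 95% interval 0.00 to 0.36). This was the smallest p of the 9 (0.0533, edgeR, adjusted p = 0.687, exact permutation p = 0.0552). Mean log2 CPM differed by 0.39 among the lower-numbered libraries and by 0.00 among the upper-numbered ones.

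The PDGF ligands and the other PDGF receptor were read alongside. All 5 genes of that list (Pdgfa, Pdgfb, Pdgfc, Pdgfd and Pdgfra) had fold changes above 0, with a median of 0.22, and 0 of 5 passed the adjusted threshold. Pdgfb, the ligand made by endothelium for PDGFRβ, was at 46.7 ± 11.3 CPM in the libraries labelled iFAXLKO and 41.2 ± 7.78 in WT (log2 fold change 0.18, edgeR adjusted p = 0.872). Pdgfra, which marks fibroblasts and adipocyte progenitors and not pericytes, was at 21.5 ± 3.6 against 16.4 ± 4.35 CPM, with a log2 fold change of 0.40 ± 0.16 (edgeR adjusted p = 0.573, the only one of the list at an unadjusted p under 0.05), and its lowest value was again WT replicate 2, at 10.5 CPM. Pdgfa and Pdgfc had log2 fold changes of 0.23 and 0.22 (adjusted p = 0.831 and 0.84).

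Notch3 (ENSMUSG00000038146, chromosome 17, 32120820 to 32166852, minus strand) is the Notch receptor of mural cells, needed for arterial smooth muscle to mature. WT replicates 1 to 5 had 65.4, 34.7, 67.2, 72.7 and 63.5 CPM of it. Across the libraries labelled iFAXLKO the values ran from 55.3 (replicate 2) through a median of 64.0 to 80.9 (replicate 4). WT replicate 2 was far below the other 4 WT libraries, which lay within the iFAXLKO range. The log2 fold change was 0.08 ± 0.14 (95% interval -0.22 to 0.39, edgeR adjusted p = 0.947, exact permutation p = 0.573) and became -0.06 without that library. A GENCODE antisense gene, Gm17276, covers 6.03% of the Notch3 exons, and it had at most 56 reads in any library where Notch3 had at least 799.

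Of the 13 other Notch pathway genes read with it (receptors Notch1, Notch2 and Notch4, ligands, targets of the Hes and Hey families, Nrarp and the DNA-binding factor Rbpj), 0 passed the adjusted threshold, 10 had a fold change above 0 and 3 below, and the median was 0.08. The smallest p belonged to Hey2, a Notch target of arterial cells, at 2.23 ± 1.01 against 1.53 ± 0.197 CPM (log2 fold change 0.54, adjusted p = 0.689). The ligand Dll1 had -0.20 (adjusted p = 0.809) and the target Hes1 had 0.15 (adjusted p = 0.855). Heyl, a Notch target of mural cells, differed by -0.02 (26.4 ± 5.52 against 26.8 ± 4.67 CPM).

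Kcnj8 and Abcc9 encode the Kir6.1 pore and the SUR2 regulatory subunit of the ATP-sensitive potassium (KATP) channel of vessels, whose opening relaxes the vessel wall. They are neighbours on chromosome 6, both on the minus strand, with Kcnj8 (ENSMUSG00000030247) at 142564837 to 142571614 and Abcc9 (ENSMUSG00000030249) at 142587862 to 142702315, a gap of 16.2 kb. Kcnj8 was at 23.5, 29.5, 34.2, 30.9 and 29.1 CPM in WT replicates 1 to 5, and between 22.7 (replicate 2) and 36.5 (replicate 3) with a median of 31.4 in the libraries labelled iFAXLKO. The groups overlapped almost entirely for Kcnj8, with a log2 fold change of 0.07 ± 0.11 (95% interval -0.17 to 0.31, edgeR adjusted p = 0.945, exact permutation p = 0.591). It was 0.00 without WT replicate 1 and 0.15 without WT replicate 3.

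For Abcc9 the WT replicates 1 to 5 gave 73.9, 35.6, 73.9, 75.6 and 71.0 CPM. The iFAXLKO-labelled libraries spanned 49.2 (replicate 2) to 86.2 (replicate 5), median 76.4. Again WT replicate 2 was the lowest of all 13, although its Kcnj8 level, 29.5 CPM, was the median of the WT libraries. The log2 fold change was 0.14 ± 0.17 (95% interval -0.22 to 0.50, edgeR adjusted p = 0.91, exact permutation p = 0.449), and -0.02 without WT replicate 2. The subunits of the pancreatic form of the channel, Kcnj11 and Abcc8, were at 9.85 ± 2.11 and 2.11 ± 0.271 CPM in the libraries labelled iFAXLKO and at 10.7 ± 2.95 and 2.58 ± 0.797 in WT. Both had fold changes below 0 (-0.12 and -0.30) that did not pass (adjusted p = 0.94 and 0.748).

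Rgs5 (ENSMUSG00000026678, chromosome 1, 169655501 to 169695813, plus strand) was at 458, 315, 521, 512 and 488 CPM in WT replicates 1 to 5. In the libraries labelled iFAXLKO its lowest value was 395 (replicate 2), its median 470 and its highest 532 (replicate 3). Of these 8, replicates 3 and 5 lay just above the highest WT library and the other 6 within the WT range. The log2 fold change of 0.05 ± 0.12 was the smallest of the 9 (95% interval -0.20 to 0.29, edgeR adjusted p = 0.971, exact permutation p = 0.677), and it became -0.06 without WT replicate 2. With 7250 or more reads per library, Rgs5 was the most deeply counted of the markers.

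Cspg4 (ENSMUSG00000032911, chromosome 9, 56865033 to 56899870, plus strand) encodes NG2, a proteoglycan of the pericyte surface that glial precursors carry too. WT libraries lay close together at 76.3, 67.0, 71.4, 71.0 and 85.5 CPM. The 8 libraries labelled iFAXLKO ran from 48.4 (replicate 5) and 49.4 (replicate 3) through a median of 75.5 up to 109 (replicate 8) and 114 (replicate 6). They thus reached beyond the WT range on both sides, with a coefficient of variation of 30.7% against 9.59% in WT, a difference in spread that was not tested. The log2 fold change was 0.07 ± 0.19 (95% interval -0.33 to 0.46, edgeR adjusted p = 0.975, exact permutation p = 0.939), and it turned to -0.03 without iFAXLKO replicate 6 and to -0.02 without replicate 8.

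**Figure D3:**
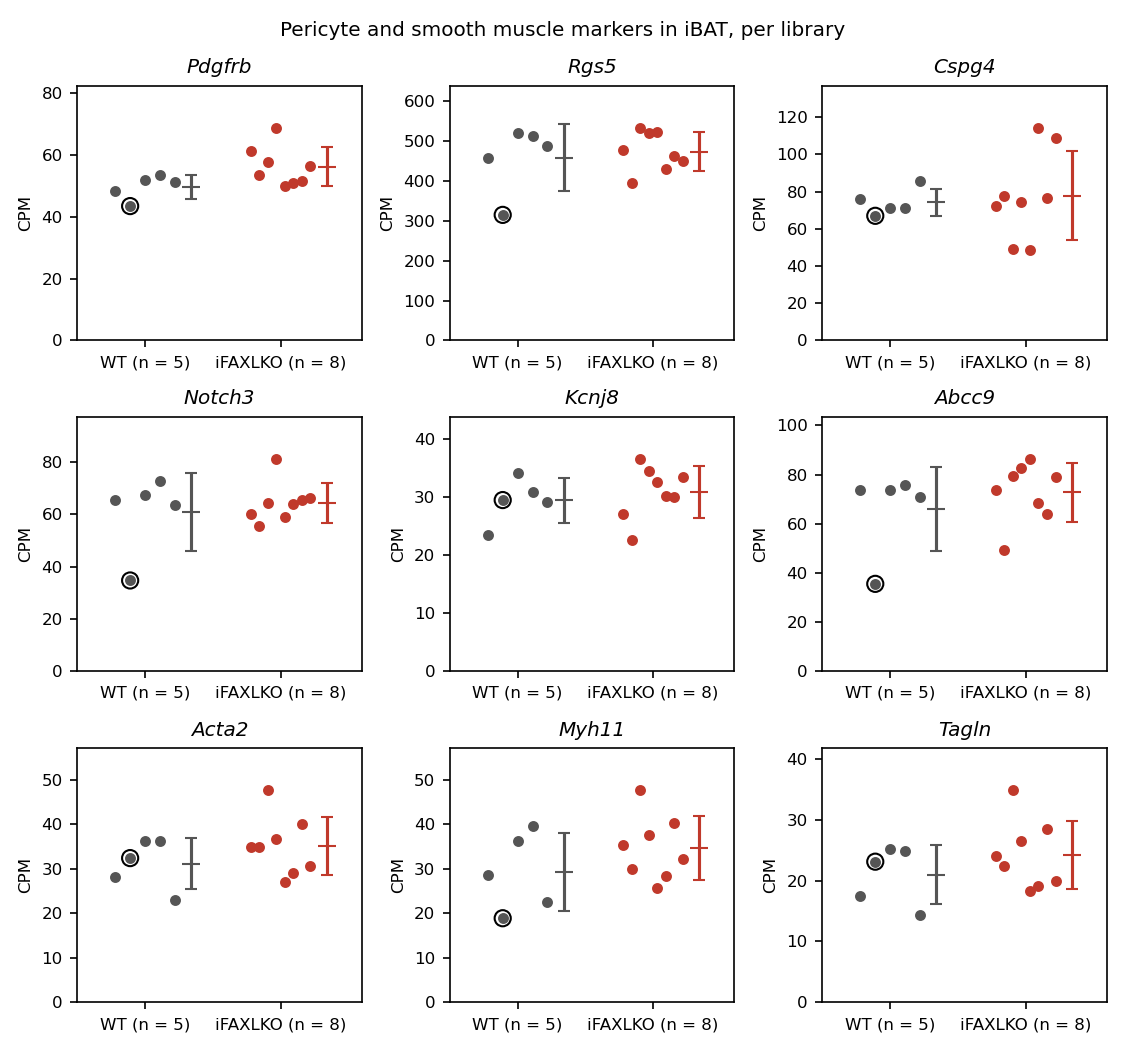
CPM of each marker by library, with 1 point per library in replicate order (grey, WT, n = 5; red, iFAXLKO, n = 8) and the group mean with its SD at the right of each group. The ringed point is WT replicate 2, the lowest library for Pdgfrb, Rgs5, Notch3, Abcc9 and Myh11 but not for Cspg4, Kcnj8, Acta2 or Tagln.

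The smooth muscle markers belong to the same contractile apparatus. Acta2 (ENSMUSG00000035783, chromosome 19, 34241090 to 34255590, minus strand) encodes smooth muscle α-actin, the thin filament protein. It was at 28.1, 32.4, 36.2, 36.2 and 23.0 CPM in WT replicates 1 to 5, and at 27.0 (replicate 5) to 47.6 (replicate 3) with a median of 35.0 in the libraries labelled iFAXLKO. The ranges overlapped between 27.0 and 36.2 CPM, which holds 4 of the 5 WT libraries. The log2 fold change was 0.17 ± 0.14 (95% interval -0.12 to 0.47, edgeR adjusted p = 0.85, exact permutation p = 0.284), and 0.08 without WT replicate 5. Its coding sequence is close to those of the other actins, but 0.33% of the 50-base windows of its transcripts occurred in a transcript of another gene, so few reads of that length could be shared.

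Transcription of Acta2, Myh11, Tagln and many other contractile genes is driven by serum response factor (SRF) with myocardin, bound at a motif called the CArG box, CC and GG around a core of A and T. Acta2, Myh11 and Tagln moved together between mice (below). The motif was therefore searched on both strands in the 250 bases before the RefSeq transcript start (GRCm38.p6). Promoter sequence was at hand for 6 of the 9 markers (Rgs5, Cspg4, Notch3, Kcnj8, Abcc9 and Acta2). It was lacking for Pdgfrb, Myh11 and Tagln, so the shared movement could not be set against the motif. With 1 mismatch allowed in the core, Acta2 alone of the 6 held it, with 2 windows, and 8.59% of 32851 promoters of that length held at least 1 and 0.67% at least 2. The light chain gene Myl9, from the list of further smooth muscle genes, also held 2, of which 1 matched exactly, as in 1.47% of promoters. It was the only 1 of the 15 promoters of 13 such genes to hold a match, beside the 8.59% of all promoters given above. Both genes are shown because they held the motif, a choice made after their values were seen. The 30 bases with the motif in capitals are printed on the strand of the gene:
Acta2, motif starting at position -84 from the transcript start, chr19:34255438-34255467, minus strand: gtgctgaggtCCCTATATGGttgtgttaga
Acta2, position -34, chr19:34255388-34255417, minus strand: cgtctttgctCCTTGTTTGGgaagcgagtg
Myl9, position -161, chr2:156775293-156775322, plus strand: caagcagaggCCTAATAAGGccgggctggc
Myl9, position -99, chr2:156775355-156775384, plus strand: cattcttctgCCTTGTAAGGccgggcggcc
Both Acta2 windows lie inside the span that GENCODE gives the gene, whose annotated end on this strand is further upstream than the RefSeq start used here. A match is a stretch of letters and was not tested for binding. TGGGAA, the core bound by the Notch factor RBPJ, was found once before Abcc9 (position -221) and once before Acta2 (position -27), and in 21.6% of all promoters. It was not found before Notch3, Rgs5, Cspg4 or Kcnj8 in these windows.

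Myh11 (ENSMUSG00000018830, chromosome 16, 14194535 to 14291372, minus strand) was at 28.6, 18.9, 36.2, 39.6 and 22.6 CPM in WT replicates 1 to 5. The libraries labelled iFAXLKO had 25.8 (replicate 5) at the lowest, a median of 33.8 and 47.6 (replicate 3) at the highest. WT replicate 2 and WT replicate 5 were below every library labelled iFAXLKO. Its log2 fold change, 0.25 ± 0.18, was the highest of the 9 and did not pass (95% interval -0.14 to 0.63, edgeR adjusted p = 0.827, exact permutation p = 0.2). The difference in mean log2 CPM was 0.67 among the lower-numbered libraries and -0.03 among the upper-numbered ones, and the fold change was 0.12 without WT replicate 2.

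Tagln (ENSMUSG00000032085, chromosome 9, 45929619 to 45936058, minus strand) encodes transgelin (SM22α), an actin-bundling protein. WT replicates 1 to 5 had 17.5, 23.1, 25.1, 24.8 and 14.3 CPM, and those labelled iFAXLKO ran from 18.3 (replicate 5) through 23.2 to 34.8 (replicate 3). The same WT library, replicate 5, was lowest for Acta2 and Tagln, and the same iFAXLKO library, replicate 3, was highest for Acta2, Myh11 and Tagln. The log2 fold change of Tagln was 0.21 ± 0.17 (95% interval -0.15 to 0.56, edgeR adjusted p = 0.855, exact permutation p = 0.296), and 0.10 without WT replicate 5. The antisense gene Gm48529 covers 62.42% of the Tagln exons and Pcsk7, on the other strand, a further 5.43%, and the strand setting of the counting is not stated, so reads of these genes may not have been told apart. Gm48529 had at most 50 reads in a library and Pcsk7 up to 821, where Tagln had at least 340.

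Further mural genes were read by the same fit. Of 10 other pericyte genes, 7 had fold changes above 0 and 3 below, with a median of 0.10, and 0 passed. An unadjusted edgeR p under 0.05 was reached by 3 of the 10, all higher, against 3.84% of all genes tested. Mcam, an adhesion molecule of pericytes and endothelium, was at 55.4 ± 13.3 CPM in the libraries labelled iFAXLKO and 42.5 ± 3.33 in WT (log2 fold change 0.38, edgeR adjusted p = 0.625, exact permutation p = 0.111). Steap4, a metalloreductase found in pericytes and also in adipocytes, was at 115 ± 38.8 against 80.1 ± 11.9 CPM (0.53, edgeR adjusted p = 0.628, exact permutation p = 0.101). Its mean log2 CPM differed by 0.08 among the lower-numbered libraries and by 0.77 among the upper-numbered ones. Vtn, which encodes vitronectin, was at 9.22 ± 1.45 against 7.32 ± 1.12 CPM (0.33, edgeR adjusted p = 0.55, exact permutation p = 0.0225). By contrast Higd1b, Cox4i2 and Gja4 had values of -0.02, -0.11 and -0.04.

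Of 14 other smooth muscle genes, 11 passed the filter on low counts and Actg2, Pln and Kcnmb1 did not. Among the 11, 7 fold changes lay above 0 and 4 below (median 0.12), and 0 passed the adjusted threshold. Itga8, an integrin chain of mesangial and smooth muscle cells, had 0.49 (1.84 ± 0.493 against 1.3 ± 0.36 CPM, adjusted p = 0.636, the only 1 of the 11 at an unadjusted p under 0.05), the contractile regulators Smtn and Mylk had 0.20 and -0.17 (adjusted p = 0.775 and 0.804), and Myl9 had 0.19 (32.3 ± 6.15 against 28.3 ± 5.77 CPM, adjusted p = 0.84). Tpm2 and Des, which skeletal muscle also uses, ran from 11.6 to 443 and from 66.9 to 225 CPM over the 13 libraries, and skeletal muscle markers varied widely over the same libraries, as given below.

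Regulators of the contractile program had differences of like size, and 0 of the 4 tested passed. Srf was at 18.7 ± 1.39 against 20.6 ± 1.7 CPM (log2 fold change -0.14, adjusted p = 0.709), its cofactors Mrtfa and Mrtfb had -0.01 and 0.17 (adjusted p = 0.989 and 0.832), and Klf4, which opposes the contractile state, had 0.19 (adjusted p = 0.918). Myocd, the gene of myocardin, was at 0.418 ± 0.155 and 0.408 ± 0.186 CPM, under the filter on low counts. Of 9 genes for vessel tone and stability (angiopoietins and their receptor Tek, endothelin and its receptors, the angiotensin receptor Agtr1a and soluble guanylate cyclase), 8 had values above 0 and 1 below, with a median of 0.21, and 0 passed. Angpt1, the angiopoietin that pericytes make for endothelial TIE2, had 0.54 (13.2 ± 5.05 against 9.09 ± 1.56 CPM, edgeR adjusted p = 0.696), and the guanylate cyclase subunits Gucy1a1 and Gucy1b1, which answer nitric oxide in mural cells, had 0.25 and 0.21 (adjusted p = 0.742 and 0.717).

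While the markers did not separate the groups, they varied between mice in an ordered way. For all 36 pairs, log2 CPM was correlated over the 13 libraries after each group's mean had been subtracted. In 7 of 36 the Benjamini-Hochberg adjusted permutation p was under 0.05 by Pearson's r, and in 4 of these 7 also by Spearman's rho. These 7 pairs had r of at least 0.67 (19.4% of the 36), a level that 4.46% of all pairs of tested genes reached. The called pairs joined Acta2, Tagln and Myh11, joined Rgs5, Abcc9 and Notch3, and joined Notch3 with Myh11. Most markers, also within called pairs, were not among each other's nearest genes. The 50 genes most like each marker held 1 other marker for Rgs5, Abcc9, Acta2 and Tagln. They held 0 for the other 5, Notch3 and Myh11 among them. Per pair, the r values below are descriptions of 13 libraries that share a normalization.

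Acta2 and Tagln were nearly proportional, with r = 0.99 (permutation p = 1e-05, the smallest that the resampling can give; adjusted p = 0.00036) and rho = 0.99. The relation held at r = 0.98 with the 2 libraries most distant from the Acta2 median left out, at 0.97 in the lower-numbered and 1.0 in the upper-numbered libraries, and at 0.99 in the 8 libraries labelled iFAXLKO. Over all 13360 genes tested, Acta2 was the gene most like Tagln and Tagln the gene most like Acta2. They lie on different chromosomes, 19 and 9.

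Myh11 followed both, with r = 0.76 to Acta2 (adjusted p = 0.023, rho = 0.82, adjusted p = 0.0174) and r = 0.71 to Tagln (adjusted p = 0.0391, rho = 0.76, adjusted p = 0.0302). The outlying library was WT replicate 2, where Myh11 was low and Acta2 and Tagln were not, and without it both values were 0.97. With the 2 most distant libraries in the first gene left out, r was 0.67 to Acta2 and 0.94 to Tagln. Within the upper-numbered libraries r was 0.99 and 0.97, whereas in the 6 lower-numbered ones it was 0.39 and 0.30 (exact permutation p = 0.435 and 0.564). The exons of Myh11 total 7.6 kb and those of Acta2 and Tagln 2.2 and 1.99 kb, and with each library's trend over exon length removed r was 0.92 and 0.89. That alternative and the one without WT replicate 2 were chosen after the data were seen.

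**Figure D4:**
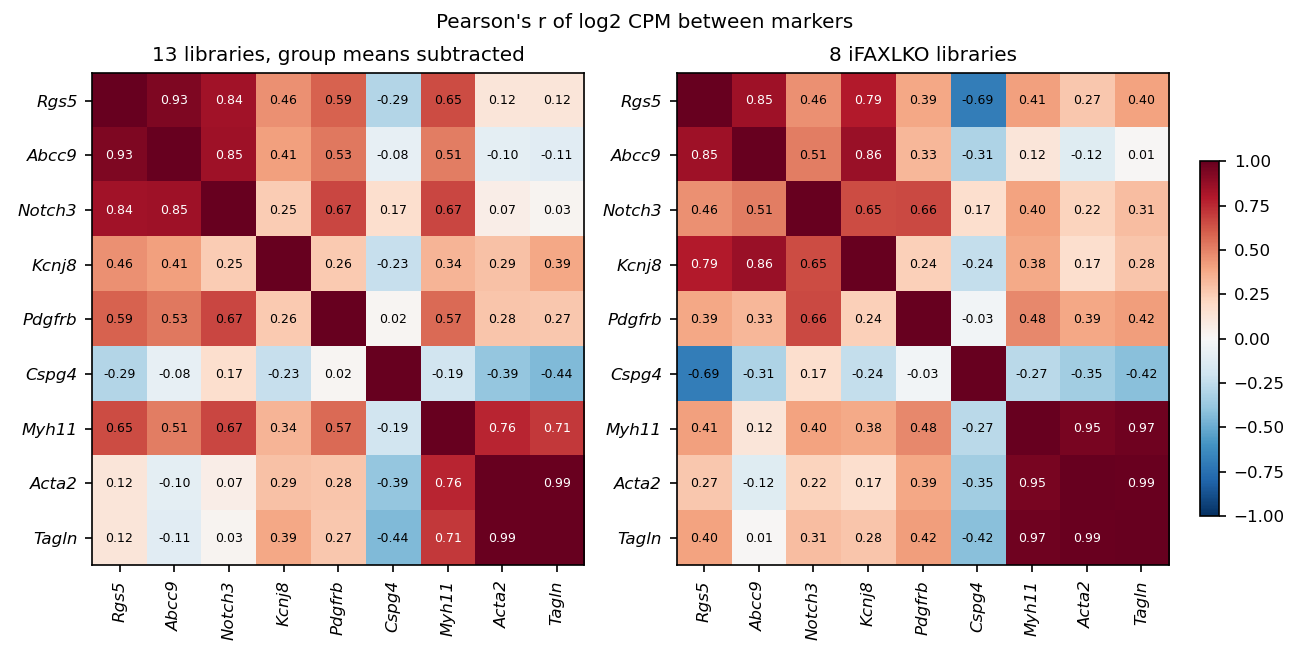
Pearson's r between markers for log2 CPM, over 13 libraries with group means subtracted (left) and over the 8 libraries labelled iFAXLKO (right), from blue (-1) to red (1). Acta2, Tagln and Myh11 form a red block at 0.71 to 0.99 on the left and 0.95 to 0.99 on the right, whereas Rgs5, Abcc9 and Notch3 reach 0.84 to 0.93 on the left and 0.46 to 0.85 on the right.

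Among the pericyte markers, Rgs5 and Abcc9 had r = 0.93 (adjusted p = 0.00198) and rho = 0.80 (adjusted p = 0.0174). The value was 0.71 with the 2 libraries most distant from the Rgs5 median left out, 0.99 and 0.67 in the lower- and upper-numbered libraries, 0.85 in the libraries labelled iFAXLKO and 0.81 without WT replicate 2. Notch3 was different. Its r of 0.85 with Abcc9 and 0.84 with Rgs5 (adjusted p = 0.00984 and 0.0138, rho = 0.61 and 0.60, adjusted p = 0.0984 for both) rested on WT replicate 2, without which r was 0.51 and 0.47, and with the 2 most distant libraries left out it was 0.64 and 0.40. In the upper-numbered libraries r was -0.28 and -0.38, so the relation did not hold within both ranges. Notch3 and Myh11 had r = 0.67 (adjusted p = 0.038, rho = 0.62, adjusted p = 0.0984), 0.55 without the 2 farthest libraries, 0.72 and 0.83 in the lower and upper ranges, and 0.48 without WT replicate 2.

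Kcnj8 and Abcc9, the neighbouring genes of the same channel, had r = 0.41 over the 13 libraries (adjusted p = 0.358, rho = 0.40) and so did not pass. Without WT replicate 2, in which Abcc9 was low and Kcnj8 was not, r was 0.71, and in the libraries labelled iFAXLKO it was 0.86 (exact permutation p = 0.0113, unadjusted). In the lower- and upper-numbered libraries it was 0.21 and 0.61. Cspg4 had r above 0.17 with none of the other 8 genes. With Rgs5 it had r = -0.29 over the 13 libraries (adjusted p = 0.569) and -0.97 in the upper-numbered ones (n = 7, exact permutation p = 0.00238), the only negative relation past the adjusted threshold in the subsets examined. Acta2 had r = 0.12 with Rgs5 and -0.10 with Abcc9, and neither passed (adjusted permutation p = 0.831 for both). For these pairs rho was 0.42 and -0.01, and without WT replicate 2 r was 0.33 and -0.05. Rgs5 and Myh11 had r = 0.65 (adjusted permutation p = 0.0504, rho = 0.63). That value was 0.93 and 0.01 in the lower and upper ranges and 0.43 without WT replicate 2.

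**Figure D5:**
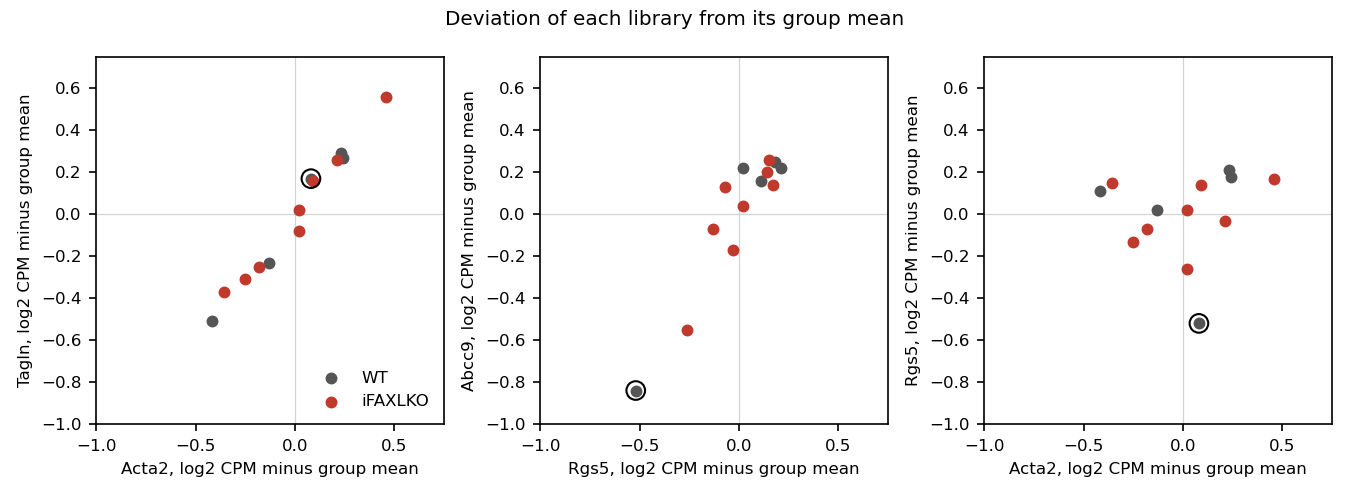
Deviation of each library's log2 CPM from its group mean for Tagln against Acta2, Abcc9 against Rgs5 and Rgs5 against Acta2 (grey, WT, n = 5; red, iFAXLKO, n = 8; the ring marks WT replicate 2). The first pair lies on a line (r = 0.99) and the second on a looser one that ends at WT replicate 2 (r = 0.93). The third shows no clear line (r = 0.12, and 0.33 without WT replicate 2).

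The genes most like each marker over the 13 libraries were then listed, by r after group means had been subtracted and with no test. Rgs5 was closest to Adgrf5, Tanc1 and Slfn5 (each r = 0.99), Abcc9 to Jcad (0.98), Sertad2 (0.97) and Shroom4 (0.95), and Notch3 to Arhgef17 (0.98), Nav1 and Ints6l (both 0.97). The 50 genes most like Notch3, Abcc9 and Rgs5 had median exon lengths of 10.2, 9.15 and 8.37 kb, against 4.33 kb over all genes tested, and those most like Acta2 and Tagln 3.16 and 3.07 kb. Exon length thus moved with these neighbourhoods, as with WT replicate 2, and its part in them was not tested beyond the alternative above, in which Rgs5 and Abcc9 had r = 0.94. Myh11 was closest to Sncaip (0.93), Hdgfl3 and Flna (both 0.92), of which Flna encodes the actin cross-linker filamin A. Pdgfrb was closest to Izumo1 (0.91), St8sia4 and Ppm1h (both 0.89), Cspg4 to Pdxk (0.96), Zcchc24 (0.94) and Gm49492 (0.93), and Kcnj8 to Tectb (0.90), AC153155.2 (0.89) and Tmem204 (0.87).

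Markers of the other cells of the depot were read beside the 9 genes. All 10 endothelial markers were measured, with a summed level of 984 to 1503 CPM in the libraries labelled iFAXLKO and 939 to 1256 in WT, a median log2 fold change of 0.12, and 0 past the adjusted threshold. Of 36 relations between the 9 markers and the summed markers of endothelium, fibroblasts, skeletal muscle and brown adipocytes, a family added after the data were seen, 2 passed by r and both were with endothelium. Rgs5 had r = 0.81 (adjusted permutation p = 0.00972, rho = 0.89, adjusted p = 0.00252), with 0.84 without the 2 farthest libraries 0.85 and 0.95 in the lower and upper ranges and 0.81 in the libraries labelled iFAXLKO. Pdgfrb had r = 0.76 (adjusted permutation p = 0.0437, rho = 0.71, adjusted p = 0.114), with 0.55 without the 2 farthest libraries and 0.75 and -0.12 in the 2 ranges, so that it did not hold within both. With endothelium, Abcc9 had 0.67 (adjusted permutation p = 0.0866) and Cspg4 -0.52 (adjusted permutation p = 0.279). Of the relations that did not pass, the smallest p belonged to Notch3 with the brown adipocyte sum. Its r was -0.78 (adjusted permutation p = 0.0692), with -0.91 and -0.14 in the lower and upper ranges.

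Fibroblast markers were the list with the highest median, 0.71, with 8 of 8 above 0 and at an unadjusted p under 0.05 (3.84% of all genes tested were higher at that limit) and 0 of 8 past the adjusted threshold (lowest adjusted p = 0.122, Lum). Their sum ran from 526 to 1174 CPM in the libraries labelled iFAXLKO and from 374 to 675 in WT, and the medians of the mural markers, 0.08 and 0.21, were lower, in a comparison that was not tested. Macrophage markers (5 of 5 above 0 and at an unadjusted p under 0.05, median 0.39, summed 62.6 to 108 against 50.1 to 72.8 CPM) and Schwann cell markers (4 of 4 above 0 and 1 of 4 at an unadjusted p under 0.05, median 0.27, summed 13.6 to 23.5 against 12.5 to 15.7 CPM) also had 0 genes past the threshold. Their part in the values of the 9 genes was not tested. Skeletal muscle markers varied widely within both groups, with sums of 2.83 to 5225 CPM in the libraries labelled iFAXLKO and 21.6 to 3616 in WT, all 10 below 0 (median -0.27) and 0 past the threshold, and with the skeletal muscle score as a covariate the median of the 9 genes was 0.12. The 4 cardiac markers summed to at most 1.01 CPM in any library. The 8 brown adipocyte markers, among them Ucp1 at 5599 ± 1121 against 6367 ± 914 CPM, summed to 14891 to 19477 and 16305 to 23505 CPM. Of these, 1 had a fold change above 0 and 7 below, with a median of -0.07. Elovl3 had the lowest, -0.69 (125 ± 45.3 against 202 ± 25.1 CPM, edgeR adjusted p = 0.474), the only 1 of the 7 at an unadjusted p under 0.05. Adipoq, the 1 above 0, alone passed (log2 fold change 0.66, edgeR adjusted p = 0.0118). Adipoq is also the gene whose sequences the Cre transgene carries.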

How the data were processed

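RNA of iBAT from 8 iFAXLKO and 5 WT mice was sequenced, 1 library per mouse. The deposited tables hold raw read counts, whole numbers per Ensembl gene. The submitters' processing notes name bcl2fastq 2.20, fastp 0.20.0, STAR 2.7.4a, DESeq2 and GRCm38.p6, and the labels give poly(A) RNA, whereas the methods of the study describe Trim Galore and hisat2 and depletion of ribosomal RNA; the counts do not settle which applies, and the counting tool and strand setting are not given in the sources used here. GENCODE M21 (GRCm38) supplied positions and exon lengths, and RefSeq the promoters.

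Genes over 1 CPM in at least 5 libraries were kept. After scaling by TMM factors, the groups were compared with edgeR 4.0.16 (R 4.3.3; quasi-likelihood, robust, 2-sided), with Benjamini-Hochberg adjustment over 13360 genes at 0.05. CPM use the TMM factors, and log2 CPM a prior count of 2. Single genes were also compared by an exact 2-sided permutation test of mean log2 CPM over 1287 splits (smallest p 0.000777). Correlations used 100000 permutations, or all orders with 8 or fewer libraries (SciPy 1.17.1). Alternatives were RLE and upper-quartile factors, DESeq2 1.42.0, limma-voom (limma 3.58.1) with quality weights, other filters and covariates, and leaving out each library. The 9 markers and all lists were chosen with earlier results of these data known. From the other lists, the text names by rule up to 3 genes with the smallest p and any gene past the limit; others named there were added after their values were seen. Library pairs within a group differed by at least 16.56 in chi-square per degree of freedom, so each counts as 1 replicate. Floors cover counting error only.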

Additional observations from a re-analysis of the deposited data

Results flagged for a closer look

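A library far from the rest of its group was seen for 4 of 58 combinations of gene and group examined, and chance gives about 1 in 20. Notch3 was at 34.7 CPM in WT replicate 2, where the other 4 WT libraries lay between 63.5 and 72.7. Abcc9 was at 35.6 CPM in that library, with the others between 71.0 and 75.6. Mylk, the gene of myosin light chain kinase, was at 37.5 CPM there, with the others between 48.5 and 50.7. These 3 genes have exons of 8.09, 8.37 and 11.3 kb in total. In the same library levels relative to the WT mean fell with exon length, by 0.17 in log2 CPM per doubling. Cspg4, with 11.9 kb, was at 67.0 CPM there and between 71.0 and 85.5 in the other WT libraries. Notch3 was also high in iFAXLKO replicate 4, at 80.9 CPM, with the other 7 between 55.3 and 66.2, and this library had the highest summed endothelial markers, 1503 CPM.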

How the results depend on the processing

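The count of 0 called markers held under all 9 alternatives of scaling, filter, tool and covariate and in all 13 fits that left out a library, and 188 of 198 fold changes kept their direction and their side of the threshold. The 10 that reversed were, with limma-voom and quality weights, Rgs5 -0.06, Cspg4 -0.01, Notch3 -0.06 and Abcc9 -0.01; without WT replicate 2, Rgs5 -0.06, Notch3 -0.06 and Abcc9 -0.02; Cspg4 at -0.03 without iFAXLKO replicate 6, at -0.02 without iFAXLKO replicate 8, and at -0.23 with the replicate number as a block. With a library left out, Rgs5 ranged from -0.06 to 0.11, Cspg4 from -0.03 to 0.14, Notch3 from -0.06 to 0.16, Abcc9 from -0.02 to 0.21, Pdgfrb from 0.13 to 0.21, Kcnj8 from 0.00 to 0.15, Acta2 from 0.08 to 0.25, Myh11 from 0.12 to 0.38 and Tagln from 0.10 to 0.30. All reversed values had an adjusted p of 0.627 or more, each in its own fit. The median of the 9 lay between 0.07 and 0.20 when a library was left out and was 0.02 with limma-voom. Genes called over the whole table numbered 17, 67 by DESeq2 and 7 with the replicate block, and 14 to 19 without a library. The sources used here do not say that the replicate numbers pair the mice. Correlations of same-numbered libraries were 0.39, 0.42, 0.19, 0.18 and -0.61. For iFAXLKO replicates 1 and 2 the best correlated WT library had the same number, and for replicates 3, 4 and 5 another. With the block 4 of 9 markers had an unadjusted p under 0.05 and 0 passed. The share of all genes under that limit was not counted for the block, so the 4 cannot be set against a background. Pairs of markers past the adjusted threshold numbered 7, with 9 under RLE factors, 0 in the 6 lower-numbered and 4 in the 7 upper-numbered libraries, 4 in the iFAXLKO libraries alone, 5 without WT replicate 2 and 6 with the trend over exon length removed, the last 3 settings chosen after the data were seen; the ranges hold fewer libraries.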
